A study of Mus musculus with 18 samples.

Results

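The tRNA-Ile-AAT family was examined by Hydro-tRNA-seq in the hippocampus of 18 male mice, 1 library per mouse. Its members were all table entries whose name starts with tRNA-Ile-AAT and that count mature or precursor reads, which gave 46 of 3574 entries. These entries describe 4 of the 213 mature tRNA species and 10 of the 335 pre-tRNA loci. The family was selected on its measured mature share, which was higher in 5xFAD shCT mice and lower again in 5xFAD shRTP801 mice. The tRNA-Ile-AAT values of these 2 comparisons are therefore described below without a test.

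tRNA-Ile-AAT is the main cytosolic carrier of isoleucine. Its genes encode an adenosine at the wobble position, the base of the anticodon that reads the last letter of a codon. The enzyme pair ADAT2 and ADAT3 deaminates this adenosine to inosine, which can pair with U, C or A and so lets the tRNA read several isoleucine codons. The genes of the other cytosolic isoleucine tRNA of the table, tRNA-Ile-TAT, carry an intron that is cut out before the tRNA ligase complex joins the exons, whereas those of tRNA-Ile-AAT have none. Precursors carry a leader and a trailer that are trimmed during maturation, and a read counts as precursor when it extends past an end of the mature tRNA. The sources used here held no tRNA sequence, so none is printed.

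All mice were on a B6SJL background and received, at 6 months of age, bilateral injections of a neuron-targeted adeno-associated virus (AAV) into the CA1 and the dentate gyrus, and both hippocampi were collected 4 weeks later. From the H1 promoter the AAV expressed either shRTP801, a short hairpin RNA that targets RTP801 (a stress-induced protein also known as REDD1), or the control hairpin shCT, together with GFP. The 5xFAD line is a transgenic model of Alzheimer's disease (AD) whose transgenes are driven by the neuronal Thy1 promoter. There were 5 WT and 3 5xFAD mice with shCT, and 4 WT and 6 5xFAD mice with shRTP801. Whole hippocampus was sequenced, so fewer cells of a type and less RNA per cell cannot be told apart, and the mRNA of RTP801 was not measured in this fraction of 60 to 100 nucleotides.

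The mature, precursor, mitochondrial and other small RNA entries of a library summed to 17961451 to 33930028 reads, called all reads below. Near-identical copies of other small RNA genes were left out of this sum. A read shared by several tRNA species counts more than once in it. In 3 of them (WT shCT mouse 5, WT shRTP801 mouse 4 and 5xFAD shRTP801 mouse 7) mitochondrial tRNAs (mt-tRNAs) made up 0.00315% to 0.438% of tRNA reads, against 9.24% to 51.4% in the other 15. The same 3 libraries had 10.1 to 17.2 precursor reads per 1000 mature reads, against 3.55 to 7.62 elsewhere, and none of them was of the 5xFAD shCT group. Markers gave a mixed check of the tissue. The brain-enriched tRNA-Arg-TCT-4 had 61 to 6619 reads per library and the neuronal Snord116 genes 0 to 10126, with 0 in the same 3 libraries. The brain microRNA genes had few reads, with medians of 5 for Mir124, 3 for Mir138, 1 for Mir128 and 0 for Mir9, below the median of 27 for the liver-enriched Mir122. No entry was found for the brain-enriched Snord115, nor for the blood, microglia and muscle microRNAs searched, so the absence of these last names says nothing about the tissue.

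Nearly all mature reads of the family lay on the species Ile-AAT-1 and Ile-AAT-3, and these were largely the same reads. Over all mice, Ile-AAT-1 held 528695 reads and Ile-AAT-3 held 527626, and in single mice the counts differed by 0.0589% to 0.549%. The difference came mostly from the 5' end, where Ile-AAT-3 had 102 reads against 831 for Ile-AAT-1, while for 3' reads the counts were 497021 and 497217. The family share given below therefore counts a shared read once per species. Counted once, the mean share over mice was 0.285% ± 0.0997 (SD, n = 18) instead of 0.405% ± 0.110 (SD, n = 18). Counted once means here that only the highest species of each read type in a family was kept. By this measure the summed reads were over 1.5 times those counted once in 27 of 49 families. Such a ratio also arises where species hold different reads, so it cannot tell how common sharing was.

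The remaining species were rare. Ile-AAT-2 had 29 to 76 reads per mouse, and Ile-AAT-4 had 0 to 11, with 0 reads in 3 mice. Together they made up under 1% of the family (0.0850% and 0.00501%), and neither passed the filter of a mean share of 0.001% of mature reads. Thus 2 of the 4 species were tested.

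In WT shCT mice 3, 5, 6, 11 and 15, the mature Ile-AAT share was 0.432%, 0.325%, 0.272%, 0.349% and 0.456% of mature tRNA reads. In 5xFAD shCT mice 1, 16 and 18 it was 0.507%, 0.654% and 0.570%. Every 5xFAD shCT mouse thus lay above every WT shCT mouse, and the group means were 0.577% ± 0.0737 (SD, n = 3) and 0.367% ± 0.0764 (SD, n = 5), a log2 ratio of 0.65. Since the family was chosen for this contrast, the separation is no test, and 6.12% of the 49 mature families (3 families: Asp-GTC, Ile-AAT and Ser-CGA) were separated in this way.

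In the 6 5xFAD shRTP801 mice, the mature share ran from 0.262% to 0.454%, with a median of 0.360%. All of them lay below the lowest 5xFAD shCT mouse, and their mean of 0.363% ± 0.0704 (SD, n = 6) was close to that of WT shCT mice. The log2 ratio to 5xFAD shCT mice was -0.67. In this contrast 2.04% of the mature families, which is Ile-AAT alone, had every 5xFAD shRTP801 mouse below every 5xFAD shCT mouse, a value that was part of the choice of the family. Both comparisons use the same 5xFAD shCT mice.

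The species Ile-AAT-1 showed the same order. This is no separate support, since it held 50.0% of the family's mature reads and Ile-AAT-3 held largely the same reads. Its share was 0.216%, 0.163%, 0.136%, 0.174% and 0.228% in WT shCT mice, 0.135%, 0.181%, 0.274% and 0.183% in WT shRTP801 mice 4, 10, 17 and 21, and 0.253%, 0.327% and 0.285% in 5xFAD shCT mice. In 5xFAD shRTP801 mice it ran from 0.131% through a median of 0.180% to 0.227%. The 5xFAD shCT values again lay above those of both other groups of the rule, and WT shRTP801 mouse 17 lay among them. Ile-AAT-3 followed within the differences given above.

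The separation was a property of the share among mature tRNAs. As a percentage of all reads of a library, mature Ile-AAT made up 0.272%, 0.263% and 0.230% in 5xFAD shCT mice and 0.303%, 0.321%, 0.205%, 0.288% and 0.153% in WT shCT mice. On this scale the groups overlapped, with means of 0.255% ± 0.0220 (SD, n = 3) and 0.254% ± 0.0719 (SD, n = 5) and a log2 ratio of 0.0079, and the log2 ratio of 5xFAD shRTP801 to 5xFAD shCT mice was -0.0053. The denominators differed, since the part of all reads held by mature tRNAs averaged 44.8% ± 7.77 (SD, n = 3) for 5xFAD shCT, 72.1% ± 24.1 (SD, n = 5) for WT shCT and 72.7% ± 18.9 (SD, n = 6) for 5xFAD shRTP801. With the deposited normalized values in place of shares, the log2 ratios of the means were -0.24 and -0.084. The fitted median over all 49 families moved to -0.54 and 0.39 on that scale, and relative to this median the fitted change of Ile-AAT was 0.44 in the former comparison and -0.51 in the latter, and it was 0.44 and -0.51 for shares.

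**Figure D1:**
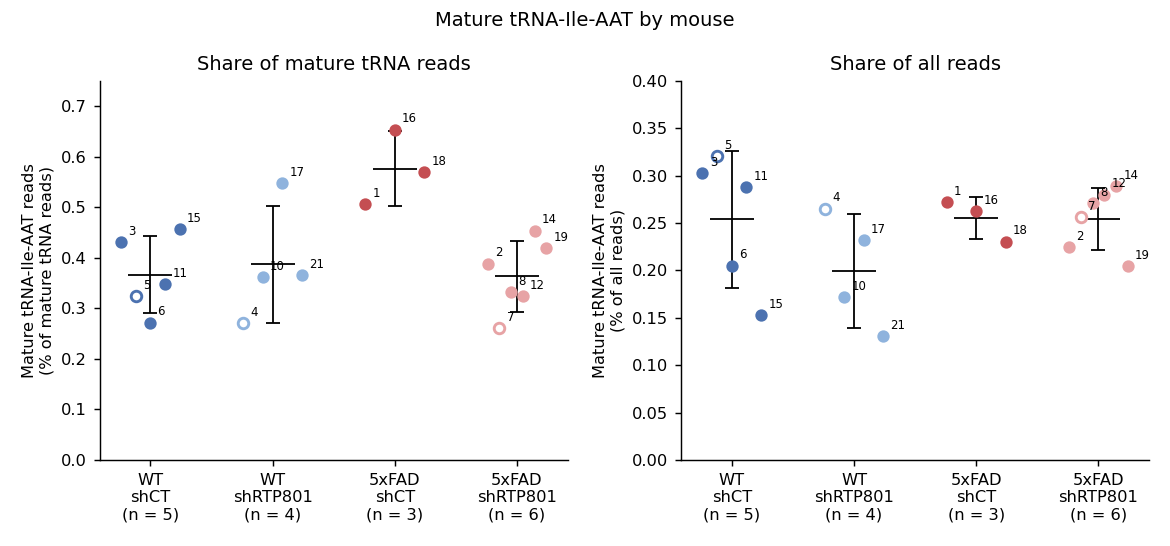
Mature tRNA-Ile-AAT reads of each mouse as a percentage of mature tRNA reads (left) and of all reads (right). Points are mice with their numbers, open points the 3 libraries with under 1% mt-tRNA reads, and bars the mean ± SD. On the left the 3 5xFAD shCT mice (0.507% to 0.654%) lie above all WT shCT and 5xFAD shRTP801 mice, and on the right the groups overlap.

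In WT shRTP801 mice 4, 10, 17 and 21, the mature share was 0.270%, 0.363%, 0.549% and 0.366%. Mouse 17 lay within the range of 5xFAD shCT mice, and the other 3 within or just below that of WT shCT mice. The mean of 0.387% ± 0.117 (SD, n = 4) differed from that of WT shCT mice by less than the spread between mice (log2 change 0.06, 95% interval -0.45 to 0.56, limma adjusted p = 0.991). The two-sided exact permutation test of the means gave p = 0.77, and the smallest p that this number of mice can give is 0.00794. Of the 49 families 0.0% passed an adjusted p of 0.05 in this comparison, with 6 families at an unadjusted p under 0.05, 0 in edgeR and 1 in DESeq2, and Ile-AAT was not among them.

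Between 5xFAD shRTP801 and WT shRTP801 mice, the mature share likewise differed by less than the spread (log2 change -0.07, 95% interval -0.56 to 0.42, limma adjusted p = 0.858). The exact permutation test gave p = 0.695, with 0.00476 as the smallest p possible. Here 0.0% of the 49 families passed, 0 had an unadjusted p under 0.05, and edgeR and DESeq2 called 0. These 2 tests each share a group of mice with the contrasts that chose the family and with each other, so they are only partly independent of the choice. The 8 exact permutation tests of the family over all mice (mature share, precursor share, ratio of precursors to mature reads and 3' type, in both comparisons) were adjusted together, and the lowest adjusted p was 0.771.

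The share of mt-tRNA reads moved along with the mature Ile-AAT share, and its part in the result was not tested. The 3 libraries with hardly any mt-tRNA had shares of 0.325%, 0.270% and 0.262%, among the 5 lowest of the 18. 5xFAD shCT mice had 33.6%, 48.2% and 48.1% mt-tRNA reads, with a mean of 43.3% ± 8.40 (SD, n = 3), against a range of 0.00315% to 51.4% over the 5 WT shCT mice and a mean of 18.4% ± 14.1 (SD, n = 6) over 5xFAD shRTP801 mice. Among mice of like mt-tRNA share, 5xFAD shCT mouse 1 (33.6%) had 0.507% Ile-AAT, while 5xFAD shRTP801 mice 2 (32.6%) and 19 (34.6%) had 0.389% and 0.419%. At 48.2% and 48.1%, 5xFAD shCT mice 16 and 18 had 0.654% and 0.570%, beside 0.456% in WT shCT mouse 15 (51.4%) and 0.549% and 0.366% in WT shRTP801 mice 17 (48.8%) and 21 (49.7%). Apart from those of WT shRTP801 mice, these are shares that the choice of the family used, so setting them side by side is no test. Without the 3 libraries, a choice made after they were seen, the log2 ratio was 0.61 for 5xFAD shCT against WT shCT mice. For 5xFAD shRTP801 against 5xFAD shCT mice it was -0.59. Groups that do not overlap with all mice cannot overlap when mice are left out, so this is no check of the separation. The mt-tRNA means in that set were 43.3% for 5xFAD shCT, 26.2% for WT shCT and 22.0% for 5xFAD shRTP801 mice.

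**Figure D2:**
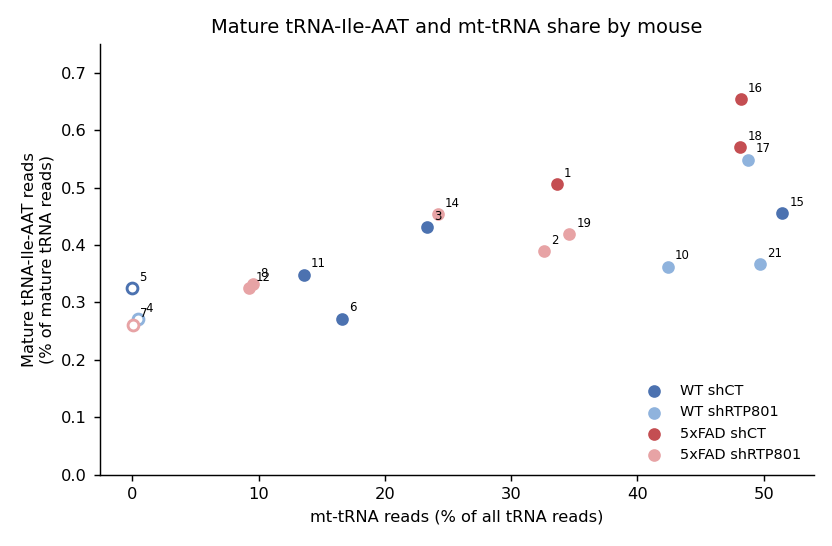
Mature tRNA-Ile-AAT reads (percentage of mature tRNA reads, vertical axis) against mt-tRNA reads (percentage of all tRNA reads, horizontal axis) for each of the 18 mice, numbered and colored by group, with open points for the 3 libraries under 1% mt-tRNA. The 3 lie between 0.262% and 0.325%, and the 5xFAD shCT mice lie at 33.6% to 48.2% mt-tRNA and at 0.507% or more.

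The fragments of mature Ile-AAT came almost entirely from the 3' end, which was usual in these data. The median 3' share over 49 families was 92.4%, and Ile-AAT ranked 23 from the highest. Reads of the 3' type made up 93.9% ± 2.50 (SD, n = 18) of the family's mature reads, reads of the type "other", which reach neither end, 5.99% ± 2.45, and 5' reads 0.101% ± 0.108. Whole mature reads were absent in 9 mice and numbered at most 6. Hydrolysis breaks the tRNA before sequencing, so these types describe fragments of the protocol and not tRNA-derived fragments in the tissue.

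In 5xFAD shCT mice the 3' type made up 95.4%, 98.3% and 95.3% of the family's mature reads. WT shCT mice had 93.9%, 89.9%, 92.3%, 94.8% and 95.3%. The lowest of the former (mouse 18) and the highest of the latter (mouse 15) were equal at the precision printed. In 5xFAD shRTP801 mice the 3' type ran from 90.6% to 97.0% with a median of 93.0%, so these overlapped with 5xFAD shCT mice. WT shRTP801 mice had 90.5%, 92.5%, 98.0% and 95.1%. Neither tested comparison passed: the mean 3' percentage was 0.799 points higher in WT shRTP801 than in WT shCT mice (exact permutation p = 0.675), and the difference of 5xFAD shRTP801 from WT shRTP801 mice was -0.888 points (exact permutation p = 0.624). In limma, 0 of the 4 read types of the family and 0.0% of the 200 read types of all families passed in either comparison. At an unadjusted p under 0.05 there were 5 and 7 of the 200, and 0 of the 4.

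The 5' reads stood out in the 3 libraries with hardly any mt-tRNA. They made up 0.338%, 0.328% and 0.313% of mature Ile-AAT reads there, 0.156% in WT shCT mouse 11 and at most 0.0866% in the remaining mice, on 16 to 215 reads per mouse. The 5' reads of other families were not compared between these libraries and the rest, so this may hold beyond Ile-AAT.

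The precursor share ordered the groups differently from the mature share. All but 2 of their reads were partial precursor reads (15397 over all mice), 2 were trailer reads and 0 were whole precursors. The precursor share was 0.969%, 1.41%, 0.399%, 1.05% and 0.645% of all precursor reads in WT shCT mice 3, 5, 6, 11 and 15, and 0.559%, 0.604% and 0.621% in 5xFAD shCT mice 1, 16 and 18. The 5xFAD shCT values lay inside the range of WT shCT mice, with means of 0.595% ± 0.0322 (SD, n = 3) and 0.894% ± 0.387 (SD, n = 5) and a log2 ratio of -0.59, where the mature share had 0.65. In 5xFAD shRTP801 mice the precursor share ran from 0.415% to 1.08% (median 0.765%), with 4 mice above and 2 below all 5xFAD shCT mice and a log2 ratio of 0.30. Without the 3 libraries the ratios were -0.37 and 0.15.

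WT shRTP801 mice 10, 17 and 21 had precursor shares of 0.380%, 0.407% and 0.374%, and mouse 4, one of the 3 libraries, had 1.02%. Two-sided exact permutation tests gave p = 0.214 for WT shRTP801 against WT shCT mice (log2 change -0.73, 95% interval -1.58 to 0.12, limma adjusted p = 0.388). For 5xFAD shRTP801 against WT shRTP801 mice the exact test gave p = 0.338 (log2 change 0.49, 95% interval -0.33 to 1.31, limma adjusted p = 0.966). In each, 0.0% of the 48 precursor families passed in limma, with 2 and 3 families at an unadjusted p under 0.05 and 0 in edgeR or DESeq2. Mouse 4 was far from the other WT shRTP801 mice. Without the 3 libraries, each of the 5 remaining 5xFAD shRTP801 mice lay above each of the 3 WT shRTP801 mice, with a log2 ratio of the means of 0.77 and p = 0.0357 by the exact permutation test (0.286 adjusted over the 8 exact tests run without these libraries, limma adjusted p = 0.497). How many of the 48 precursor families were separated in this way was not counted. In that set the WT shRTP801 mice had 47.0% ± 3.97 (SD, n = 3) mt-tRNA reads and the 5xFAD shRTP801 mice 22.0% ± 12.2 (SD, n = 5). Each of these 5 mice lay below each of the 3 in mt-tRNA share, and the part of this in the result was not tested.

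Relative to the family's own mature reads, precursors had the lowest group median in 5xFAD shCT mice, with 4.74, 3.64 and 6.98 precursor reads per 1000 mature reads. WT shCT mice had 7.98, 50.5, 5.31, 23.0 and 6.30, and WT shRTP801 mice 38.0, 5.39, 4.53 and 7.70. In 5xFAD shRTP801 mice the values ran from 5.32 to 71.3 with a median of 8.59. The 3 highest values of the 18 were those of the 3 libraries with hardly any mt-tRNA, and the fourth was that of WT shCT mouse 11. The ratio did not pass in the tested comparisons: the log2 change was -0.45 (95% interval -2.13 to 1.24, limma adjusted p = 0.996) for WT shRTP801 against WT shCT mice and 0.29 (-1.33 to 1.91, limma adjusted p = 0.972) for 5xFAD shRTP801 against WT shRTP801 mice, intervals that hold large changes in both directions. The exact permutation tests of this ratio gave p = 0.619 and p = 0.771. Of the 48 ratios 0.0% passed in either, with 0 at an unadjusted p under 0.05.

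**Figure D3:**
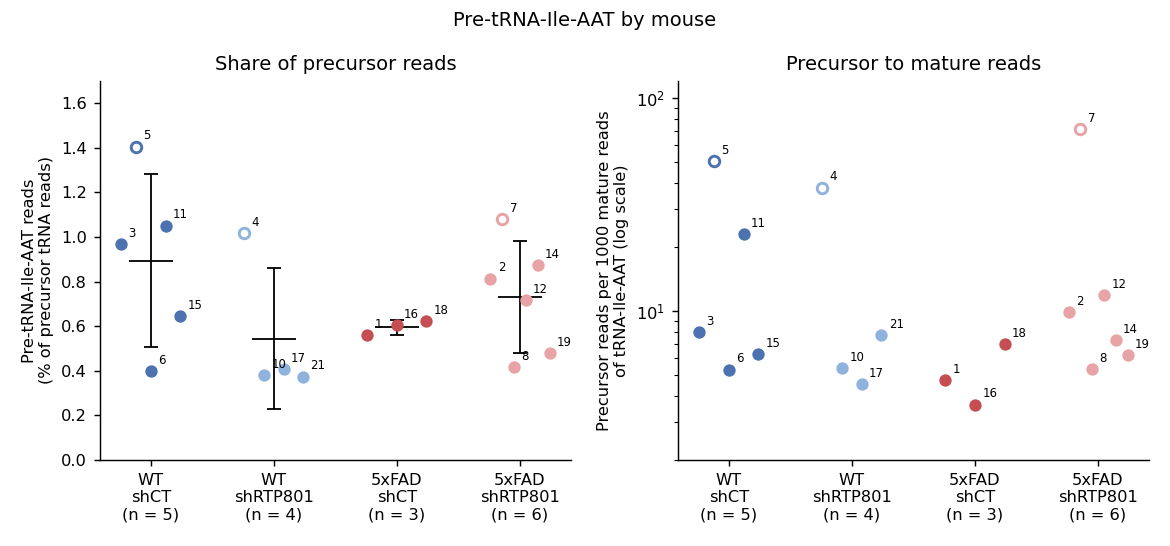
Pre-tRNA-Ile-AAT reads as a percentage of precursor tRNA reads (left, with the mean ± SD of each group) and per 1000 mature tRNA-Ile-AAT reads (right, log scale). Points are mice with their numbers, and open points are the 3 libraries with under 1% mt-tRNA reads, which hold the 3 highest values on the right (38.0 to 71.3).

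Since precursor reads reach into the flanks of a gene, they can separate loci that the mature reads cannot. Whether each precursor read was unique to a single locus was not checked. Ile-AAT-1 has 8 loci in the table, Ile-AAT-2 and Ile-AAT-3 have 1 each and Ile-AAT-4 has none. Over all mice, 24.2% of the family's precursor reads lay on Ile-AAT-1-7, 16.8% on Ile-AAT-3-1, 12.9% on Ile-AAT-1-2, 11.6% on Ile-AAT-1-3, 10.6% on Ile-AAT-1-8, 7.12% on Ile-AAT-1-5, 6.71% on Ile-AAT-1-4 and 5.77% on Ile-AAT-1-6. The remaining 2, Ile-AAT-1-1 and Ile-AAT-2-1, held 3.61% and 0.688%. Each locus but Ile-AAT-2-1 had reads in every mouse, and Ile-AAT-2-1 had 0 to 20, with 0 in WT shCT mice 5 and 11 and 5xFAD shRTP801 mouse 7, which allows a share of up to 0.000942% to 0.00230% of the precursor reads (3 reads).

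Ile-AAT-1-7, the locus with most reads, made up 0.200%, 0.400%, 0.0729%, 0.340% and 0.0794% of precursor reads in WT shCT mice, 0.279%, 0.0512%, 0.0744% and 0.0578% in WT shRTP801 mice, and 0.0857%, 0.0984% and 0.120% in 5xFAD shCT mice, with 0.0513% to 0.264% (median 0.148%) in 5xFAD shRTP801 mice. The 5xFAD shCT mice lay inside the range of the other groups, and the highest values were those of WT shCT mice 5 and 11, WT shRTP801 mouse 4 and 5xFAD shRTP801 mouse 7. Ile-AAT-3-1, the only locus of its species, had 0.160%, 0.241%, 0.0511%, 0.203% and 0.0710% in WT shCT mice, 0.176%, 0.0590%, 0.0721% and 0.0470% in WT shRTP801 mice, 0.0561%, 0.0846% and 0.0943% in 5xFAD shCT mice and 0.0577% to 0.181% (median 0.145%) in 5xFAD shRTP801 mice. The high mice were the same.

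Ile-AAT-1-2 and Ile-AAT-1-3 spread still more between mice. Ile-AAT-1-2 had 0.0806%, 0.200%, 0.0146%, 0.125% and 0.0439% in WT shCT mice, 0.152%, 0.0216%, 0.0275% and 0.0202% in WT shRTP801 mice, 0.0247%, 0.0315% and 0.0508% in 5xFAD shCT mice and 0.0144% to 0.219% (median 0.0619%) in 5xFAD shRTP801 mice. For Ile-AAT-1-3 the values were 0.10%, 0.205%, 0.0292%, 0.113% and 0.0606% in WT shCT mice, 0.140%, 0.0157%, 0.0229% and 0.0336% in WT shRTP801 mice, 0.0709%, 0.0433% and 0.0537% in 5xFAD shCT mice and 0.0333% to 0.134% (median 0.0682%) in 5xFAD shRTP801 mice. In both, 5xFAD shCT mice sat in the lower part of the range of WT shCT mice.

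Ile-AAT-1-8 was the steadiest of the larger loci, with 0.106%, 0.113%, 0.0784%, 0.0551% and 0.123% in WT shCT mice, 0.0935%, 0.0728%, 0.0710% and 0.0753% in WT shRTP801 mice, 0.101%, 0.128% and 0.104% in 5xFAD shCT mice and 0.0676% to 0.0989% (median 0.0840%) in 5xFAD shRTP801 mice. Here every 5xFAD shCT mouse lay above every 5xFAD shRTP801 mouse, on a contrast that the choice of the family used. The 5xFAD shCT mice overlapped with WT shCT mice. How many loci of other families were separated in this way was not counted, so the separation cannot be called particular to this locus. Ile-AAT-1-6 varied most in another set of mice: it had 0.113%, 0.0333%, 0.0602%, 0.0452% and 0.0940% in WT shCT mice, 0.0206%, 0.0531%, 0.0275% and 0.0336% in WT shRTP801 mice, 0.0923%, 0.0236% and 0.0682% in 5xFAD shCT mice and 0.0263% to 0.181% (median 0.0631%) in 5xFAD shRTP801 mice. Its highest value was that of 5xFAD shRTP801 mouse 14, on 113 reads.

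Ile-AAT-1-4 had 0.119%, 0.0823%, 0.0328%, 0.0719% and 0.0522% in WT shCT mice, 0.0590%, 0.0315%, 0.0412% and 0.0242% in WT shRTP801 mice, 0.0181%, 0.0571% and 0.0537% in 5xFAD shCT mice and 0.0192% to 0.0945% (median 0.0530%) in 5xFAD shRTP801 mice. Ile-AAT-1-5 had 0.0433%, 0.106%, 0.0219%, 0.0612% and 0.0418% in WT shCT mice, 0.0740%, 0.0256%, 0.0298% and 0.0336% in WT shRTP801 mice, 0.0528%, 0.0551% and 0.0450% in 5xFAD shCT mice and 0.0283% to 0.0910% (median 0.0392%) in 5xFAD shRTP801 mice. Both overlapped between all groups. The 2 smallest loci are given by their range, which was 0.0207% to 0.0480% for Ile-AAT-1-1 and 0% to 0.0394% for Ile-AAT-2-1.

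All 10 loci passed the filter, and 0 of them passed the test in WT shRTP801 against WT shCT mice, where 0.0% of 333 loci passed in limma, 34 had an unadjusted p under 0.05 (0 of the 10), and edgeR and DESeq2 called 0. The largest of the 10 fitted changes was that of Ile-AAT-1-3, at -1.18 (95% interval -2.48 to 0.11, limma adjusted p = 0.576). In 5xFAD shRTP801 against WT shRTP801 mice 0 of the 10 and 0.0% of the 333 passed, with 7 at an unadjusted p under 0.05 (0 of the 10) and 0 in edgeR and DESeq2. The largest change there was that of Ile-AAT-1-6, at 0.86 (95% interval -0.31 to 2.02, limma adjusted p = 0.991).

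The composition of the precursor pool by locus differed between libraries, also within a group, and its difference between groups was not tested. Ile-AAT-1-7, Ile-AAT-3-1, Ile-AAT-1-2 and Ile-AAT-1-3, a set picked after the values were seen, held 74.4%, 73.4% and 73.7% of the family's precursor reads in the 3 libraries with hardly any mt-tRNA and 74.2% in WT shCT mouse 11, against 38.9% to 64.3% in the other 14. In 5xFAD shCT mice the figure was 42.5%, 42.7% and 51.4%. Ile-AAT-1-2 took a larger part of the family in each of the 3 libraries (14.2% to 20.3%) than in any other (3.47% to 11.9%), while Ile-AAT-1-1 (1.87% to 2.19% against 3.57% to 10.8%) and Ile-AAT-1-6 (2.02% to 2.49% against 3.91% to 20.7%) took a smaller one. For these last 3 loci the reads behind the percentages numbered 37 to 699 per locus and mouse in the 3 libraries and 8 to 163 in the others.

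**Figure D4:**
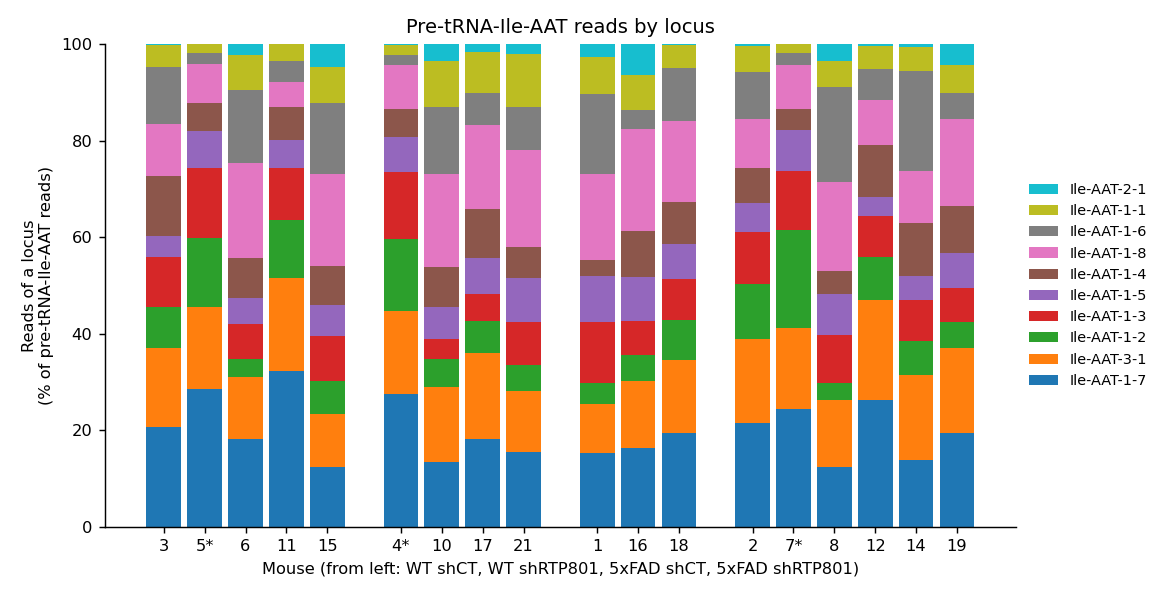
Share of each of the 10 loci in the pre-tRNA-Ile-AAT reads of each mouse (stacked to 100%), with mice in groups from left to right and an asterisk at the 3 libraries with under 1% mt-tRNA reads. In these 3 and in WT shCT mouse 11 the 4 loci at the bottom hold 73.4% to 74.4% of the reads, and in the other mice 38.9% to 64.3%.

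Among isoleucine tRNAs, mature Ile-TAT, which decodes AUA and needs splicing, had 0.0385% to 0.0428% of mature reads in 5xFAD shCT mice and 0.0397% to 0.0556% in WT shCT mice. Its means were 0.0413% ± 0.00244 (SD, n = 3), 0.0453% ± 0.00672 (SD, n = 5) and, in 5xFAD shRTP801 mice, 0.0503% ± 0.0217 (SD, n = 6). It was thus lowest of these 3 groups in 5xFAD shCT mice, by less than its own spread (log2 changes -0.12, limma adjusted p = 0.779, and 0.18, adjusted p = 0.949). In WT shRTP801 mice, where Ile-AAT averaged 0.387%, its mean was lower still, at 0.0401% ± 0.00917 (SD, n = 4). Over the 18 mice its log2 share had a Pearson r of -0.03 with that of Ile-AAT. Over the 15 mice without the 3 libraries with hardly any mt-tRNA, r was -0.55. Its precursors made up 1.6%, 1.40% and 0.466% of all precursor reads in 5xFAD shCT mice, where those of Ile-AAT held 0.559%, 0.604% and 0.621%, and 0.0801% to 1.46% in WT shCT mice (log2 change 1.99, limma adjusted p = 0.328). No entry of the table was named Ile-GAT. The mitochondrial isoleucine tRNA, mt-Ti, took 0.400% ± 0.127 (SD, n = 3) of the mt-tRNA reads for 5xFAD shCT and 0.411% ± 0.251 (SD, n = 5) for WT shCT, with 0 reads in WT shCT mouse 5 and 7 in 5xFAD shRTP801 mouse 7.

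The other families whose genes encode A at the wobble position, and which ADAT2 and ADAT3 also modify, lay on both sides of 0. Of the 7 (Ala-AGC, Arg-ACG, Leu-AAG, Pro-AGG, Ser-AGA, Thr-AGT and Val-AAC), 4 were higher and 3 lower in mature share in 5xFAD shCT than in WT shCT mice, and 0 passed. Their median log2 change was 0.14, beside 0.23 over all 49 families. Leu-AAG came nearest to Ile-AAT in both contrasts. For 5xFAD shCT its mean was 0.647% ± 0.149 (SD, n = 3), that for WT shCT was 0.438% ± 0.251 (SD, n = 5), and the log2 change was 0.76 (limma adjusted p = 0.534), and it was -0.77 in 5xFAD shRTP801 against 5xFAD shCT mice (adjusted p = 0.949). Arg-ACG lay the other way, with -0.53 (adjusted p = 0.501) and 0.29 (adjusted p = 0.949). Between 5xFAD shRTP801 and 5xFAD shCT mice 2 of the 7 were higher and 5 lower (median -0.25, over all families -0.17), and 0 passed.

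In WT shRTP801 against WT shCT mice, 4 of the 7 were higher and 3 lower, with 0 past the adjusted threshold and 1 at an unadjusted p under 0.05. This was the serine tRNA Ser-AGA, which averaged 0.0814% ± 0.0780 (SD, n = 4) in the former and 0.0174% ± 0.0144 (SD, n = 5) in the latter, and its log2 change was 2.24 (limma adjusted p = 0.228). In 5xFAD shRTP801 against WT shRTP801 mice 2 were higher and 5 lower, and 0 passed. Whether a family counts as higher or lower here depends on the scale, since the fitted median of all 49 families in this last comparison was -0.19 for shares and 0.07 for deposited values.

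**Figure D5:**
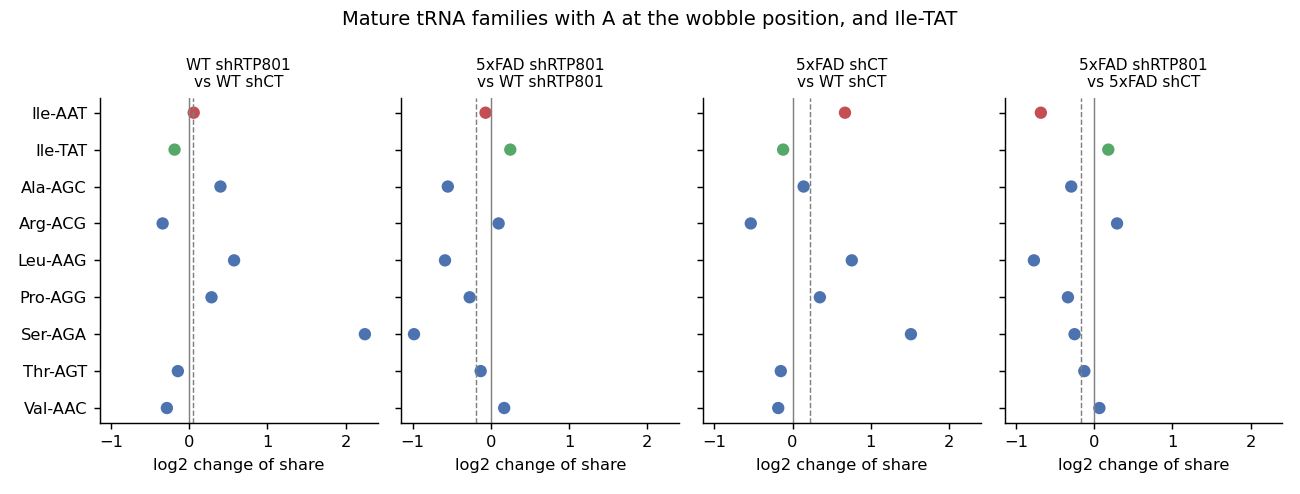
Fitted log2 change of the mature share in the 4 comparisons for Ile-AAT (red), Ile-TAT (green) and the 7 other families with A at the wobble position (blue). The solid line marks 0 and the dashed line the median of all 49 families. In the 2 right panels, the contrasts that chose Ile-AAT, its change is 0.67 and -0.68, with the 7 others on both sides of 0.

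The mature families whose log2 share resembled that of Ile-AAT most over the 18 mice were Cys-GCA (Pearson r = 0.66), Gly-GCC (0.63), Glu-CTC (0.57), Leu-TAA (0.53) and Gln-CTG (0.51). This is a description over mice that share a denominator and the spread in mt-tRNA reads. Without the 3 libraries, r was 0.48, 0.57, 0.52, 0.32 and -0.01 over 15 mice, so the likeness to Gln-CTG rested on these 3. Cys-GCA, a family of many genes, averaged 9.03% of mature reads in 5xFAD shCT, 6.57% in WT shCT, 5.97% in 5xFAD shRTP801 and 7.16% in WT shRTP801 mice. Gly-GCC averaged 9.23%, 5.52%, 6.33% and 8.18% in these groups in turn.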

How the data were processed

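Hydro-tRNA-seq reads were counted per the submitters' notes with tRAX against mm39. The deposited signal values are reads divided by a size factor of each library. Whole reads were recovered by dividing by the smallest non-zero value of a library (100.0% of non-zero values were whole multiples within 0.001). Family reads were summed and given as a percentage of mature or of precursor tRNA reads. Members and lists were chosen with earlier results of these data known.

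Features with a mean share of at least 0.001% were tested on log2(percentage + 0.001) with limma 3.58.1 over all 18 mice in 4 groups, so fold changes of low features are understated, with Benjamini-Hochberg adjustment over each whole table and a threshold of 0.05. For read types and ratios 0.5 reads were added to both sides. Group means were compared by exact permutation. Alternatives were other scales and filters, leaving out each mouse, and the recovered reads tested with DESeq2 1.42.0 and with edgeR 4.0.16. The fits were tested on simulated data.

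The rule for named items took the family, its species and loci with at least 5% of the family's reads (by mouse, or by lowest, median and highest in the group of 6; Ile-AAT-3 by its difference from Ile-AAT-1), the other members by range, and, by group means, counts or correlations, the isoleucine tRNAs, the families with A at the wobble position and the 5 most correlated families. Wilson 95% half-widths were 0.953% to 1.46% of the value for mature Ile-AAT-1 and 3.32% to 14.1% for precursors, and cover counting error only.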

Additional observations from a re-analysis of the deposited data

Results flagged for a closer look

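Of 48 groups of 4 to 6 mice examined for a mouse far from the rest, 11 held one, where chance gives about 1 in 20 independent groups. These values are not independent, since the loci add up to the family's precursor share and ratio, so the 11 cannot be set against that rate. WT shRTP801 mouse 4 had 7 of these values and 5xFAD shRTP801 mouse 7 had 3, and both are libraries with under 1% mt-tRNA reads. The precursor Ile-AAT share of WT shRTP801 mouse 4 was 1.02% (0.374% to 0.407% in the other mice of its group), and it had 38.0 precursor reads per 1000 mature reads (4.53 to 7.70). Its 5' share of mature Ile-AAT reads was 0.328% (0.0381% to 0.0866%). Its shares of precursor reads were 0.152% for Ile-AAT-1-2 (0.0202% to 0.0275%), 0.140% for Ile-AAT-1-3 (0.0157% to 0.0336%), 0.0740% for Ile-AAT-1-5 (0.0256% to 0.0336%) and 0.279% for Ile-AAT-1-7 (0.0512% to 0.0744%). 5xFAD shRTP801 mouse 7 had 71.3 precursor reads per 1000 mature reads (5.32 to 11.9), a 5' share of 0.313% (0.0281% to 0.0820%) and an Ile-AAT-1-5 share of 0.0910% (0.0283% to 0.0480%). 5xFAD shRTP801 mouse 14, whose mt-tRNA share was 24.2%, had 0.181% of its precursor reads on Ile-AAT-1-6 (0.0263% to 0.0817%).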

How the results depend on the processing

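No alternative brought a member of the family past the adjusted threshold in WT shRTP801 against WT shCT or in 5xFAD shRTP801 against WT shRTP801 mice, and adjusted p ran from 0.579 to 0.995 and from 0.651 to 0.998 for the mature share and from 0.144 to 0.968 and was 0.401 or more for the precursor share. The sign of the small mature changes turned with the scale. In WT shRTP801 against WT shCT mice the log2 change was -0.41 with deposited values, -0.013 centred on the median feature, -0.031 in edgeR and -0.34 as a percentage of all reads. In 5xFAD shRTP801 against WT shRTP801 mice it was 0.19 with deposited values, 0.015 in edgeR, 0.012 in DESeq2 and 0.39 as a percentage of all reads. Leaving out each mouse gave, for these comparisons in turn, -0.13 to 0.21 and -0.22 to 0.11 for the mature share, -1.08 to -0.54 and 0.36 to 0.84 for the precursor share, -1.13 to 0.055 and -0.24 to 0.97 for the precursor to mature ratio, and -0.12 to 0.67 and -0.66 to 0.13 for the 3' type. The mature sign turned without WT shCT mouse 6 (-0.044) or WT shRTP801 mouse 17 (-0.13) in the former comparison and without WT shRTP801 mouse 17 (0.11) or 5xFAD shRTP801 mouse 7 (0.021) in the latter. That of the ratio turned without WT shCT mouse 5 (0.055) in the former and without WT shRTP801 mouse 17 (-0.049) or 5xFAD shRTP801 mouse 7 (-0.24) in the latter, and that of the 3' type without WT shRTP801 mouse 17 (-0.12 and 0.13).

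Of the described values, the mature log2 ratio of 5xFAD shCT to WT shCT mice was -0.24 with deposited values and 0.0079 as a percentage of all reads, and that of 5xFAD shRTP801 to 5xFAD shCT mice -0.084 and -0.0053. For precursors these were -2.64 and -2.09, and 2.26 and 1.89. As a percentage of all reads, -2.09 became -1.11 without WT shCT mouse 5 and 1.89 became 0.69 without 5xFAD shRTP801 mouse 7. For shares with each mouse left out, the mature ratios were 0.55 to 0.75 and -0.75 to -0.57, and the precursor ratios -0.78 to -0.37 and 0.15 to 0.42. Counting reads shared by species once gave mature ratios of 0.78 and -0.75. The cause of these shifts was not tested. No paired analysis was possible because the groups share no replicate numbers. Precursor values rest on 193 to 3447 reads per mouse.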
